A study of Mus musculus with 8 samples.

Results

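The genes described here are those of DNA replication and cell division in gonadal white fat, 38 listed genes of which 37 were measured among the 18193 genes of the arrays. They were taken from a fixed list of names, which was chosen with earlier results of these data known. The list has 11 genes of S phase, the part of the cell cycle in which DNA is copied, and 27 genes named here mitosis members, which act in G2 and in mitosis; 26 of these were measured. Ccnb1 was not matched to a probe set and was not analysed here. The study compared 4 arrays of gonadal fat from control mice, labelled wild type, with 4 from mice labelled aP2-Pex5 -/-, all aged 10 weeks and, per the series' design text, on a Swiss background. No treatment was given to either group. Pex5 is the receptor that carries enzymes into peroxisomes, and the submitters described the mutants as having no working peroxisomes in fat. The aP2 promoter belongs to Fabp4, which is expressed in adipocytes and also in some macrophages, and the tissue holds cells other than adipocytes. Replicate numbers follow the labels, so that controls run from 1 to 4 and the knockouts are 6, 8, 9 and 10. Whether each array came from its own mouse is not stated, and the p-values therefore cover only the spread among these 8 samples, which may be technical.

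Mature adipocytes do not divide, and the dividing cells of white fat are mainly its progenitors, endothelial cells, macrophages and other blood-derived cells. Genes of S phase are known to be switched on by E2F factors when the retinoblastoma protein is phosphorylated by cyclin-dependent kinases. Genes of G2 and mitosis are held down in resting cells by the DREAM complex and switched on later by the B-Myb and FoxM1 form of the same MuvB core. That complex reads a promoter element called the cell cycle homology region, or CHR, and the factor NF-Y reads the CCAAT box that commonly lies near it. Because whole tissue was measured, a lower number of dividing cells and less RNA in each of them cannot be told apart.

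The promoters of the members were searched for the CHR, the CCAAT box and the core of E2F sites, as a description. Whether these motifs have a part in how the members varied from array to array was not tested. RefSeq promoters of assembly GRCm38.p6, each 300 bases from 250 before to 50 after a gene's start, were listed for 33 of the 38 genes, 10 of S phase and 23 of mitosis. Motifs were searched on both strands as TTNGAA with N being C or T for the CHR, CCAAT for the CCAAT box, and TTNNCGC with each N being C or G for the E2F core. A CHR was found in 20 of 25 promoters of mitosis members (80%) and in 2 of 11 of S phase members (18.2%), against 19.2% of all 32851 promoters. The E2F core showed the opposite order, in 7 of 11 S phase promoters (63.6%) and 5 of 25 mitosis promoters (20%), against 9.57% of all. Among promoters of genes measured here, 15.1% held a CHR and 13.6% an E2F core. Counted by gene, the E2F core was in 17.4% of mitosis members and 16% of genes measured here. A CCAAT box was found in 22 of 25 and 9 of 11 promoters, or 88% and 81.8%, against 37.4% of all. CHR and CCAAT box occurred together in 19 of 25 mitosis promoters, or 76%, and in 7.52% of all promoters. Matches of different motifs overlapped in 4 of the mitosis promoters, in 1 of the S phase promoters and in 196 of all. A match shows only that the letters are there.

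**Figure D1:**
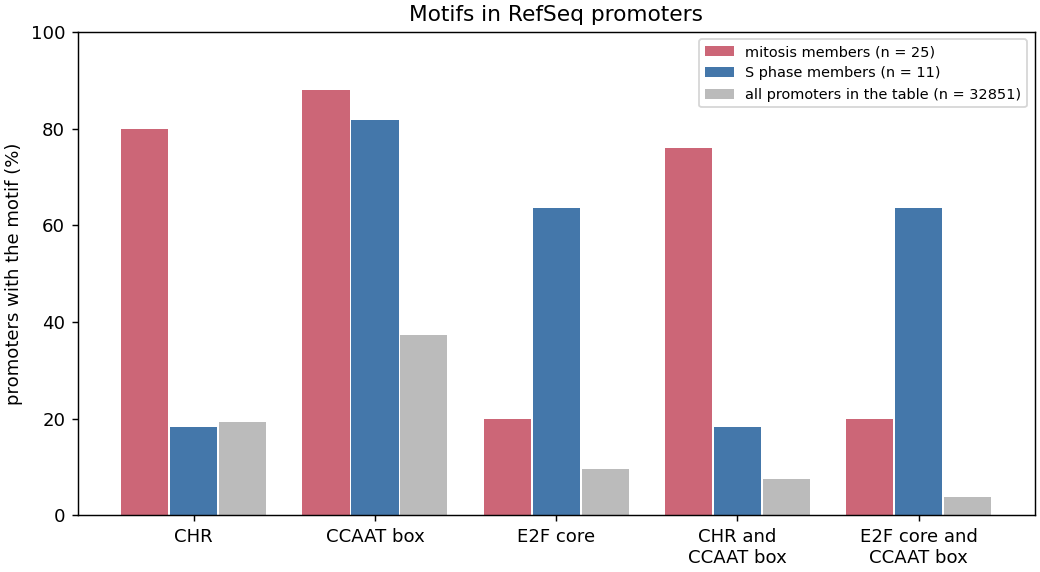
Share of RefSeq promoters (percent, vertical axis from 0) that hold each motif or pair of motifs, for mitosis members (25 promoters), S phase members (11) and all 32851 promoters of the table. The CHR bar is highest for mitosis members (80%), and the E2F bar for S phase members (63.6%).

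Shown next are the 150 bases before the start of those members whose values are given array by array below and which hold, in that stretch, the pair of motifs typical of their class, CHR and CCAAT box for mitosis and E2F core and CCAAT box for S phase. For Ect2, with 2 promoters listed, the one farther upstream is shown. Each runs 5′ to 3′ on the strand of the gene, with matches of the 3 motifs in capitals.
Cdk1, chr10:69352913-69353062, strand -: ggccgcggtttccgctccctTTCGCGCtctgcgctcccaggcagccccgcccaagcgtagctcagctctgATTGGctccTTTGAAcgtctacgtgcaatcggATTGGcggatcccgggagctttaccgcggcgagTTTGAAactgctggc
Mki67, chr7:135716380-135716529, strand -: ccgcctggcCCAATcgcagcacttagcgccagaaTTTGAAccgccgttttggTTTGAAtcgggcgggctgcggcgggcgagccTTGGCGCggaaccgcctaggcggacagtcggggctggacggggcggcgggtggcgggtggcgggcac
Top2a, chr11:99024190-99024339, strand -: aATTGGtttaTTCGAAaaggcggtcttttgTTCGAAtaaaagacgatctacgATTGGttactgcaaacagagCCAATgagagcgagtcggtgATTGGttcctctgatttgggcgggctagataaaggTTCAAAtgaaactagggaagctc
Ect2, chr3:27153879-27154028, strand -: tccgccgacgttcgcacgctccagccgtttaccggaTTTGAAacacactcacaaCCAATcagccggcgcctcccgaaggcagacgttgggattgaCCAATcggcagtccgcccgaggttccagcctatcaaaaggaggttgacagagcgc
Rrm1, chr7:102441545-102441694, strand +: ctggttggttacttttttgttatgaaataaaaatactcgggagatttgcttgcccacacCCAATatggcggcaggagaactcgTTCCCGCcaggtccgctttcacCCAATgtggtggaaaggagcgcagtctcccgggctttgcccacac
Mcm6, chr1:128359706-128359855, strand -: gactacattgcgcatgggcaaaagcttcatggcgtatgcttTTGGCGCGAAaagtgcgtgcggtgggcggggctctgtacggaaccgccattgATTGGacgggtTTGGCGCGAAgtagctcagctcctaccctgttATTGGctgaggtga
In Cdk1, the kinase that drives entry into mitosis, a CCAAT box written ATTGG lay 80 bases before the start and a CHR written TTTGAA at 71, with a second CHR at 15. Top2a, the topoisomerase that untangles sister chromosomes, had 4 CCAAT boxes and 3 CHR matches in this stretch. The promoters of Rrm1 and Mcm6 held E2F cores between CCAAT boxes or beside them and no CHR. In Mcm6 each E2F match was part of a stretch that reads as a core on both strands, so 4 matches stand at 2 places.

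As a check on the tissue, the adipocyte markers (8 measured, such as Adipoq and Lep) averaged between 13.2 and 13.6 on the log2 scale on every array. The probe set of Pex5 differed by -0.01 between knockout and control (95% interval -0.29 to 0.27), and the labels do not say which exons were deleted, so this checks nothing about the genotype. Several arrays were high in genes of other organs or of blood cells. A list's score is the mean deviation of its members from their own means over the 8 arrays, on the log2 scale. Hepatocyte markers scored 3.0 in control 1, epididymis markers 3.36 in knockout 8, spermatogenic markers 1.22 in control 3 and 1.64 in knockout 9, and neutrophil markers 1.87 in control 4. Xist read 8.27 in control 1 and between 5.55 and 6.2 elsewhere, while the Y-linked genes Eif2s3y, Kdm5d and Uty read 8.13 or more on each of the 8 arrays.

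No difference between knockout and control was detected in any of the 37 members. With limma and Benjamini-Hochberg adjustment over all 18193 genes, 0 members passed an adjusted p of 0.05, as did 0 of all genes (0% called), and the smallest adjusted p of a member was 0.999. Without adjustment, 0 of 37 members had a p under 0.05, where 466 of all genes did, or 2.56%, and a plain test per gene, which also called 0 after adjustment, had 511 genes and 0 members there. Leaving out 1 array moved the limma counts. Without control 1 there were 2 members and 582 genes, and without control 3 there were 2 members and 521 genes. Without control 2 there was 1 member among 363 genes, and without control 4 there was 1 among 1566. Without knockout 8 there were 310 genes and without knockout 10 there were 283, each with 0 members. The groups overlapped in all 37 members; over all genes they did not overlap in 1.7%. The member with the smallest unadjusted p, 0.126, was Ect2. Differences, given as knockout minus control on the log2 scale, lay below 0 in 28 of 37 members, where 53.3% of all genes did, with a median of -0.10 in each class against -0.01 over all genes. S phase differences ran from -0.21 to 0.15 and mitosis differences from -0.32 to 0.22. The median 95% interval reached 0.28 to either side for S phase members and 0.42 for mitosis members, wider than the 0.25 of all genes. These half-widths differ from gene to gene and are no limit of detection after adjustment.

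**Figure D2:**
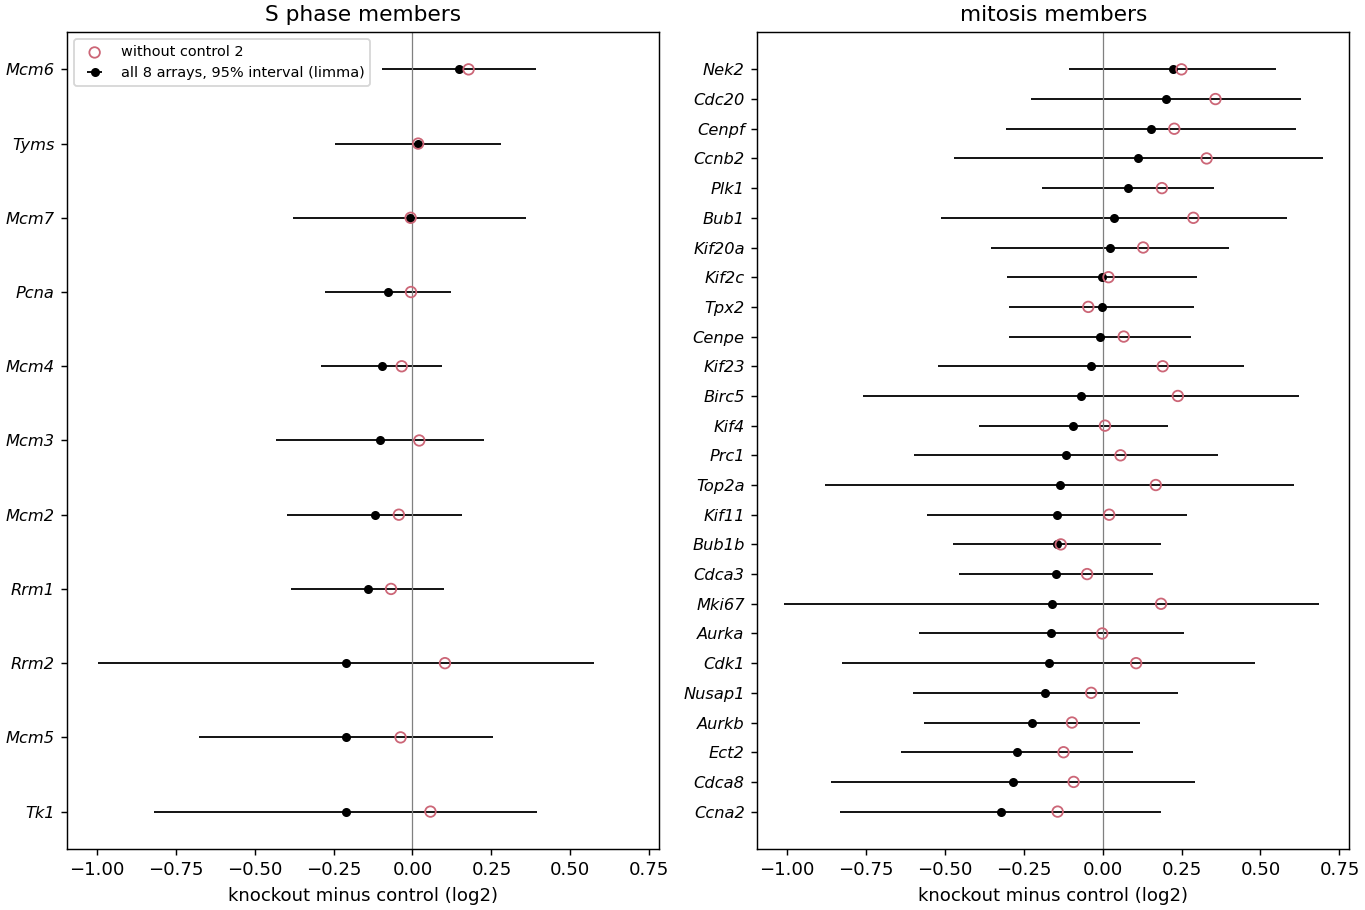
Knockout minus control on the log2 scale for each measured S phase member (left) and mitosis member (right). Black points with bars are limma differences over 8 arrays with 95% intervals, open circles the difference without control 2. Every interval spans 0, and without control 2 most mitosis members lie above 0.

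The S phase members were described first by the replication fork. The Mcm genes encode subunits of the helicase ring that opens DNA at replication origins. Mcm2 read 8.80, 9.0, 8.44 and 8.83 in controls 1, 2, 3 and 4 and 8.79, 8.65, 8.55 and 8.60 in knockouts 6, 8, 9 and 10. Control 2 was highest and control 3 lowest, and the knockouts lay within the control range, for means of 8.77 ± 0.24 for the controls and 8.65 ± 0.10 for the knockouts (mean ± SD, n = 4 per group) and a difference of -0.12 (95% interval -0.40 to 0.16). Mcm4 read 8.52, 8.72, 8.36 and 8.51 in controls 1, 2, 3 and 4 and 8.45, 8.48, 8.39 and 8.41 in knockouts 6, 8, 9 and 10, with control 2 again highest and the knockouts between 8.39 and 8.48. Its difference was -0.10 (95% interval -0.29 to 0.09). Mcm3 and Mcm5 also had their highest value in control 2, at 8.03 and 8.33, and differed by -0.10 and -0.21. The other two Mcm genes did not follow. Mcm6 read 8.77, 8.71, 8.53 and 8.45 in controls 1, 2, 3 and 4 and 8.96, 8.80, 8.60 and 8.68 in knockouts 6, 8, 9 and 10, highest in knockout 6, with a difference of 0.15 (95% interval -0.10 to 0.39). Mcm7 read 10.18, 9.99, 9.48 and 10.27 in controls 1, 2, 3 and 4 and 9.88, 9.98, 10.05 and 9.98 in knockouts 6, 8, 9 and 10; control 3 stood lowest and control 4 highest, and the difference was -0.01 (95% interval -0.38 to 0.36). Pcna, the sliding clamp that holds the DNA polymerase on its template, read 11.25, 11.50, 11.14 and 11.24 in controls 1, 2, 3 and 4 and 11.21, 11.28, 11.16 and 11.18 in knockouts 6, 8, 9 and 10. Control 2 lay above all other arrays, which fell within a narrow range, and the difference was -0.08 (95% interval -0.28 to 0.12).

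Among the enzymes that make DNA building blocks were the S phase members with the largest SD over the 8 arrays, Rrm2 and Tk1. Rrm2, the cell cycle regulated subunit of ribonucleotide reductase, read 6.47, 7.61, 6.0 and 6.62 in controls 1, 2, 3 and 4 and 7.06, 6.41, 6.08 and 6.30 in knockouts 6, 8, 9 and 10. Control 2 and knockout 6 were the highest arrays, and control 3 and knockout 9 the lowest. Its means were 6.67 ± 0.68 for the controls and 6.46 ± 0.42 for the knockouts (mean ± SD, n = 4 per group), a difference of -0.21 (95% interval -0.99 to 0.57). Tk1, the thymidine kinase of dividing cells, read 6.26, 7.22, 6.03 and 6.14 in controls 1, 2, 3 and 4 and 6.61, 6.07, 5.99 and 6.13 in knockouts 6, 8, 9 and 10, with the same highest pair and all others between 5.99 and 6.26. Its difference was -0.21 (95% interval -0.82 to 0.39). Rrm1, the large subunit of the reductase, read 8.53, 8.78, 8.47 and 8.47 in controls 1, 2, 3 and 4 and 8.54, 8.5, 8.20 and 8.45 in knockouts 6, 8, 9 and 10, highest in control 2 and lowest in knockout 9, and differed by -0.14 (95% interval -0.38 to 0.10). Tyms, thymidylate synthase, read between 3.75 and 4.22 and was highest in knockout 9, with 4.05 in control 2. Its probe sets were all dim, with means of 3.92 to 4.06 where the median of gene means was 7.58. The order of its arrays therefore carries little.

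**Figure D3:**
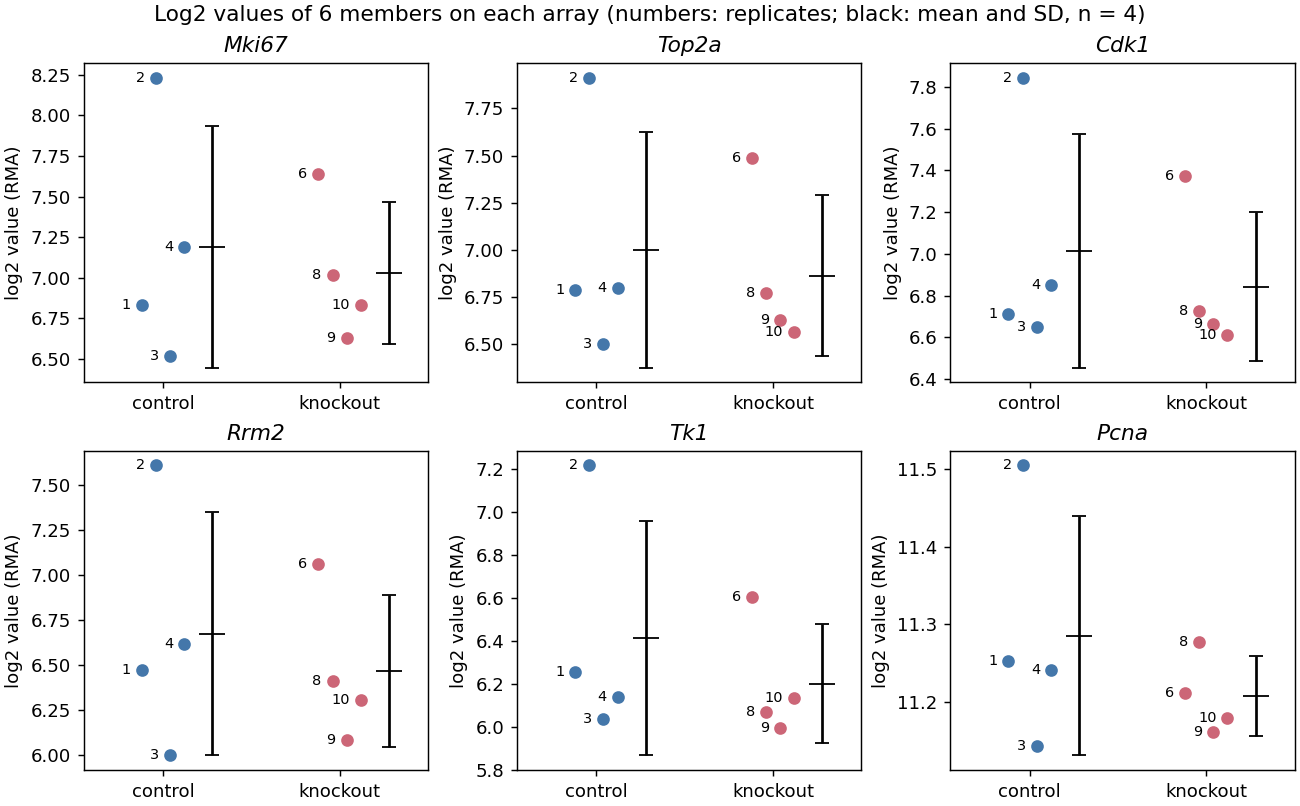
Log2 values of Mki67, Top2a, Cdk1, Rrm2, Tk1 and Pcna, one point per array with its replicate number, control in blue and knockout in red; the black mark gives each group's mean and SD (n = 4). Control 2 is the highest array in all 6 genes and knockout 6 the next highest in all but Pcna.

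Among mitosis members, the classic markers of dividing cells had the same 2 arrays at the top as Rrm2. Mki67, which coats mitotic chromosomes and is read as Ki-67 in histology, read 6.83, 8.23, 6.52 and 7.19 in controls 1, 2, 3 and 4 and 7.64, 7.02, 6.63 and 6.83 in knockouts 6, 8, 9 and 10. Control 2 was highest, knockout 6 next and control 3 lowest, and the other 5 arrays of both groups were mixed together. The means were 7.19 ± 0.75 for the controls and 7.03 ± 0.44 for the knockouts (mean ± SD, n = 4 per group), a difference of -0.16 (95% interval -1.01 to 0.68). Top2a read 6.78, 7.91, 6.50 and 6.80 in controls 1, 2, 3 and 4 and 7.49, 6.77, 6.63 and 6.56 in knockouts 6, 8, 9 and 10. Again control 2 and knockout 6 stood above the other arrays, which lay between 6.5 and 6.8. The difference was -0.14 (95% interval -0.88 to 0.61). Cdk1 read 6.71, 7.84, 6.65 and 6.85 in controls 1, 2, 3 and 4 and 7.37, 6.73, 6.67 and 6.61 in knockouts 6, 8, 9 and 10, with the same pair on top and the other arrays between 6.61 and 6.85. Its difference was -0.17 (95% interval -0.83 to 0.48). Of its cyclin partners, Ccna2 reached 7.05 in control 2 and lay between 5.91 and 6.58 elsewhere (-0.32 between groups), and Ccnb2 read 6.78 in control 2 and 6.72 in knockout 6 against 5.69 to 6.29 elsewhere (0.11).

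The mitotic kinases and spindle checkpoint genes come next, with control 2 highest in all members named in this paragraph but Nek2 and Bub1b. Aurkb, the kinase of the chromosomal passenger complex, read 5.01, 5.78, 5.33 and 5.47 in controls 1, 2, 3 and 4 and 5.23, 5.06, 5.15 and 5.25 in knockouts 6, 8, 9 and 10. Controls 2, 4 and 3 lay above every knockout and control 1 below them all, and the difference was -0.22 (95% interval -0.57 to 0.12). Its partners in that complex, Birc5 (survivin) and Cdca8 (borealin), differed by -0.07 and -0.28. Birc5 reached 6.85 in control 2, and Cdca8 was high in control 2 (7.45) and also in control 3 (7.25). Spermatogenic markers scored -0.49 in control 2, 1.22 in control 3 and 1.64 in knockout 9, where Cdca8 read 6.69. That list was mixed in control 2. Sycp3 read 10.48 and Stra8 5.96 there, each its highest value of all arrays. Against the mean of the other arrays, control 2 stood at -1.21 to -1.42 in Prm1, Prm2, Tnp1 and Tnp2. It stood at -0.33 in Ddx4 and 0.06 in Dazl. The part of spermatogenic cells in the values of Cdca8 was not tested. Nek2, a kinase that separates centrosomes, read 6.16, 6.28, 5.86 and 6.49 in controls 1, 2, 3 and 4 and 6.55, 6.39, 6.56 and 6.19 in knockouts 6, 8, 9 and 10. It was highest in knockouts 9 and 6 and lowest in control 3, with a difference of 0.22 (95% interval -0.11 to 0.55). Aurka, the spindle pole kinase, peaked in control 2 at 6.69 and differed by -0.16, and Plk1, which acts throughout mitosis, at 6.49 and by 0.08. The checkpoint kinase Bub1 read 5.11 in control 2 and 3.97 to 4.57 elsewhere (0.04), while its relative Bub1b was highest in knockout 6 (-0.14). Cdc20, the activator of the ligase that ends the checkpoint, read 7.25 in control 2, 6.23 in control 3 and 6.97 to 7.01 in the knockouts (0.20).

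Motors, kinetochore and cytokinesis genes make up the rest of the class. Ect2, which signals the cleavage furrow, read 4.94, 5.54, 4.90 and 5.0 in controls 1, 2, 3 and 4 and 5.11, 4.73, 4.78 and 4.68 in knockouts 6, 8, 9 and 10. Control 2 stood apart at the top, and 3 of 4 knockouts lay below all controls. Its difference was -0.27 (95% interval -0.64 to 0.09). The kinesins Kif11, Kif23 and Kif4 had their highest values in control 2, at 6.17, 7.19 and 5.31, and differed by -0.14, -0.04 and -0.09. Kif20a was highest in knockout 9 and Kif2c in control 3, with differences of 0.02 and -0.000852. Nusap1 and Prc1, which bundle spindle microtubules, reached 6.49 and 6.88 in control 2 and differed by -0.18 and -0.12. Tpx2, a spindle assembly factor, was highest in control 4 and next in knockout 10 on the probe set used (-0.00278), while 2 of its other probe sets were highest in control 2, one at 4.68 against 3.59 to 4.13 elsewhere and one at 5.29 against 4.84 to 5.12. The kinetochore proteins Cenpe and Cenpf differed by -0.01 and 0.15, the latter highest in knockout 6, and Cdca3, a trigger of mitotic entry, by -0.15.

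Across the members, 1 array stood highest most often. Control 2 was the highest of the 8 arrays in 28 of 37 members, 8 of 11 in S phase and 20 of 26 in mitosis, where it was highest in 15.1% of all genes. Among the members, control 2 followed by knockout 6 was the order at the top in 14, against 3.37% of all genes. This array was singled out after its values were seen, so the counts are a description with no test. On the log2 scale, control 2 lay above the mean of the other 7 arrays by a median of 0.33 in S phase and 0.62 in mitosis, against -0.02 over all genes, and by up to 1.28, a factor of 2.43, in Mki67. Knockout 6 lay above the mean of the other knockouts in 33 of 37 members, by a median of 0.18 in S phase and 0.22 in mitosis, where over all genes it did in 8547 of 18193, with a median of -0.01. Control 3 was the lowest array in 13 members, knockout 10 in 8 and control 1 in 7, all of the latter in mitosis; over all genes they were lowest in 3029, 1991 and 2520. The scores were 0.37 for S phase and 0.49 for mitosis in control 2, 0.12 and 0.19 in knockout 6, and between -0.22 and 0.03 on each of the other arrays. The classes parted in control 1, with 0.03 for S phase and -0.19 for mitosis. The SD within control was larger than within knockout in 30 of 37 members, and in 12142 of all 18193 genes.

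**Figure D4:**
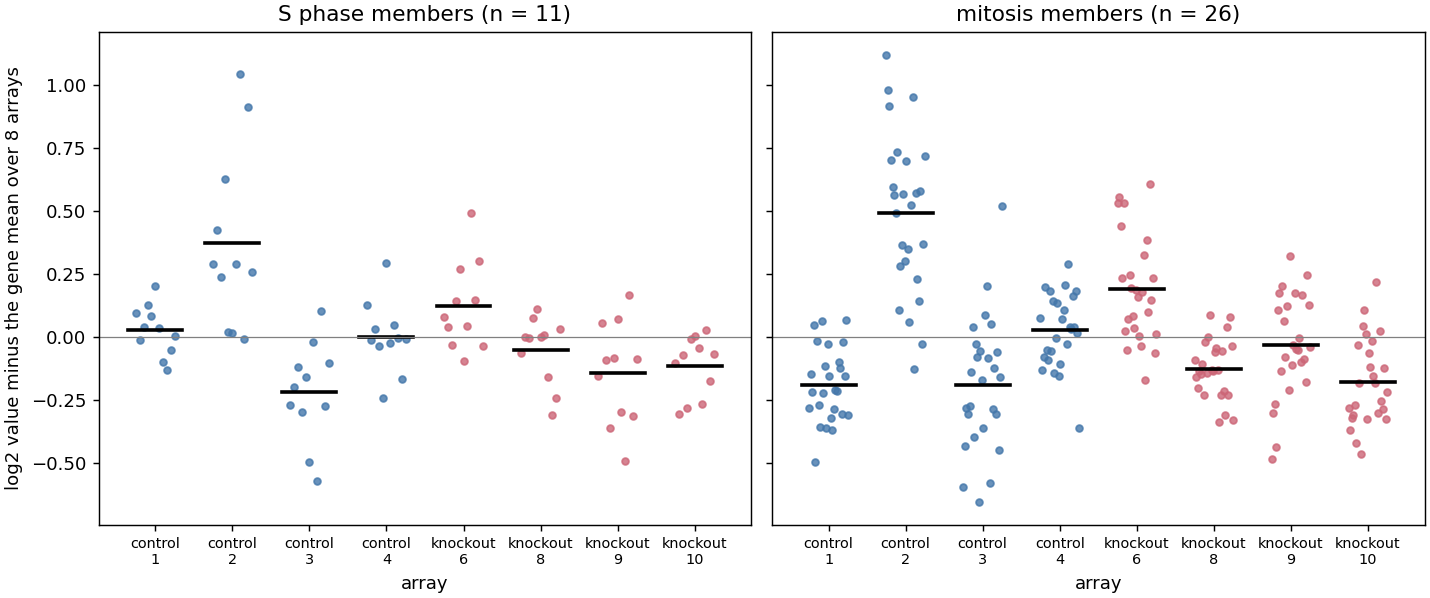
Deviation of each measured member from its own mean over 8 arrays (log2, vertical axis) on each array, for S phase (left, 11 genes) and mitosis (right, 26 genes); black bars are the list scores. The bars are highest in control 2 (0.37 and 0.49), next highest in knockout 6 (0.12 and 0.19), and low in control 3.

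Probe sets that were not used to represent a gene were counted separately. Of 20 further probe sets of S phase members 13 were highest in control 2, and of 32 further ones of mitosis members 21, against 16.5% of all probe sets. They come from the same 8 samples, so they add no replicate. Of the members whose chosen probe set was not highest in control 2, Mcm6, Mcm7 and Nek2 had no other probe set that was, whereas Bub1b had 2 of 2, Tyms and Tpx2 2 of 3 each, Cenpf 1 of 2 and Kif2c 1 of 3; Kif20a had a single probe set. None of the 89 probe sets passed the test over all 45037 (0% called). At an unadjusted limma p under 0.05 there were 2, where all probe sets had 2.53%. These were a further probe set of Mcm6 and one of Nek2, both higher in knockout, by 0.24 and 0.26. Of the 27 members with several probe sets, the sign of the difference was mixed in 12.

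After group means were subtracted, members were correlated with each other over the 8 arrays. The median Pearson correlation was 0.64 over 325 pairs of mitosis members, 0.70 over 55 pairs of S phase members and 0.55 between the classes, while over all gene pairs it was 0.01 with 5% of pairs above 0.76. All pairs share the same 8 arrays, and the values are a description. Without control 2 the medians were 0.39, 0.47 and 0.25. Without control 2 and knockout 6, which leaves 6 arrays, they were 0.32 within mitosis, 0.55 within S phase and 0.05 between the classes. Closest to Mki67 over 8 arrays were Rrm2 (0.99), Ccna2 (0.98), Top2a (0.97) and Cdk1 (0.97). Farthest were Tpx2 (-0.33), Kif2c (-0.04) and Tyms (-0.01), each by its chosen probe set only, and Tyms was dim on every array. Mitosis members with a CHR lay higher in control 2 by a median of 0.65 (18 genes, 0.07 to 1.28). The 4 without one did by 0.43 (-0.03 to 1.09). For S phase members the medians were 0.41 with an E2F core (6 genes) and 0.31 without one (4 genes). Ranges overlapped in both classes, the groups without a motif were small, and these splits were not tested.

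The median differences of the members moved with the high arrays. Without control 2 the median was -0.00475 in S phase, with 6 of 11 members below 0, and 0.06 in mitosis, with 9 of 26 below 0. That omission keeps knockout 6, the high knockout. Without control 2 and knockout 6 together, an omission chosen after seeing the data, the medians were -0.04 and -0.01, with 9 of 11 and 14 of 26 members below 0. Without control 2 alone Mki67 differed by 0.19, Top2a by 0.17, Cdk1 by 0.11, Rrm2 by 0.10 and Tk1 by 0.06. Without both arrays these 5 genes lay below 0 again, at -0.0187 for Mki67, -0.0399 for Top2a, -0.0697 for Cdk1, -0.0966 for Rrm2 and -0.0787 for Tk1. Without control 3 the medians were -0.18 and -0.17. The arrays were also taken as the first 4 and the last 4 in order of accession, each with 2 arrays of each group. Within the former, which holds control 2 and knockout 6, the medians were -0.16 in each class, and within the latter -0.02 for S phase, with 8 of 11 members below 0, and -0.07 for mitosis, with 17 of 26. No member passed the test in any of these fits.

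Other genes of the cell cycle, in 7 lists of 119 measured genes, also had 0 past the test (0% of all genes), with 6 at an unadjusted p under 0.05, 5 lower and 1 higher in knockout, against 1.38% and 1.18% of all genes. Control 2 was the highest array in 74 of the 119, against 15.1% of all genes. By role it was highest in 14 of 17 for origin licensing and firing and 18 of 23 for the fork and nucleotide supply. The count was 24 of 34 for kinetochore, condensin and spindle and 5 of 10 for G2 and M control. It was 8 of 19 for E2F, RB and MuvB regulators and 4 of 9 for G1 cyclins and kinases. Inhibitors of cyclin-dependent kinases had 1 of 7, or 14.3%, near the share of all genes. Shares in lists this short are coarse. In the same order, differences lay below 0 in 15 of 17, 18 of 23, 29 of 34 and 6 of 10 genes. They did in 16 of 19, 6 of 9 and 4 of 7 genes of the last lists, against 53.3% of all genes. Medians were -0.10, -0.04, -0.08, -0.03, -0.07, -0.10 and -0.05, against -0.01 over all genes. Ccne2, the E-type cyclin of S phase entry, read 7.36 in control 2 and 5.95 to 6.74 elsewhere. Uhrf1, which copies DNA methylation onto new strands, read 7.25 there and 5.89 to 6.86 elsewhere, and the mitotic kinase Melk 5.80 against 4.76 to 5.45. These 3 were picked out after their values were seen.

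Named by the smallest unadjusted p in their lists, and none past the test (limma adjusted p of 0.999 each), were the following genes. Among G1 genes Cdk2 differed by -0.23 (95% interval -0.46 to -0.00154) and Ccne1 by -0.18. Among licensing genes Mcm10 and Gins2, which help to start the helicase, differed by -0.18 and -0.19. At the fork, the primase subunit Prim2 differed by -0.27 (-0.50 to -0.04) and the clamp loader subunit Rfc3 by -0.34 (-0.65 to -0.02). Cdc25b, the phosphatase that activates Cdk1, differed by -0.32 (-0.56 to -0.08), and Cks1b by -0.14. Lin9, a MuvB subunit, differed by -0.37 and Rbl1, a pocket protein, by -0.15. Cenpa, the centromeric histone, and the kinesin Kif18a differed by -0.26 and -0.15. Of the inhibitors, Cdkn2a differed by -0.19 and Cdkn1c by 0.60 (0.27 to 0.93). Cdkn1c read 8.32, 8.32, 8.63 and 8.70 in controls 1, 2, 3 and 4 and 9.07, 9.19, 8.77 and 9.32 in knockouts 6, 8, 9 and 10. It was the 1 gene of the 119 whose groups did not overlap, and over all genes 1.7% did not. Foxm1, the late activator, read between 6.46 and 6.64 on all arrays, with 6.62 in control 2.

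Scores of cell type markers are set here beside those of the members, in control 2 and knockout 6 in that order. Macrophage markers (11 of 12 measured, mean level 9.33 to 9.80 in control and 9.04 to 9.56 in knockout) scored -0.18 in control 2 and -0.47 in knockout 6, the lowest values of the 8 arrays. Markers of T and NK cells scored -0.20 and -0.40 there and those of B and plasma cells -0.28 and -0.47. Erythroid markers (4 of 8 measured) scored -0.53 and -0.50, near the -0.52 of control 1, and neutrophil markers -0.35 and -0.09. Fibroblast and preadipocyte markers scored -0.07 and -0.22, endothelial markers -0.21 and 0.06, mesothelial markers 0.04 and -1.12, and smooth muscle markers -0.58 and 0.01. Adipocyte markers stood at 0.08 and 0.14, and hepatocyte markers at 0.46 and 0.99, where control 1, the highest in hepatocyte markers, had members at 0.03 and -0.19. Spermatogenic markers scored -0.49 and -0.71, epididymis markers -0.69 and -0.63, and markers of ovary, oviduct and uterus -0.31 and 0.11. Of the spermatogenic list, however, Sycp3 and Stra8 were highest in control 2. The part of any of these cells in the members' values was not tested.

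**Figure D5:**
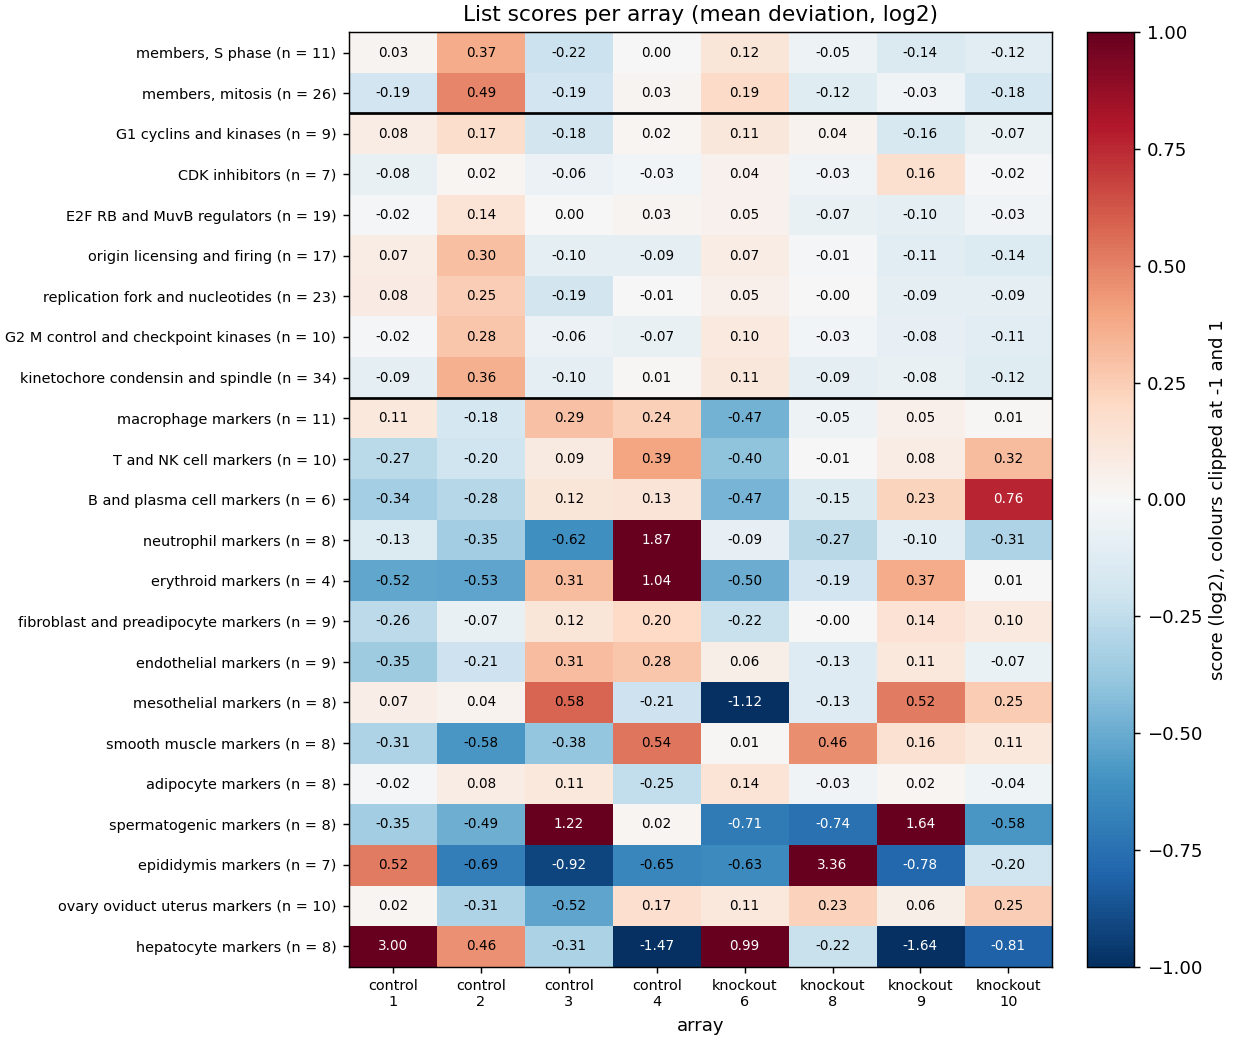
List scores (mean deviation from the gene means over 8 arrays, log2) on each array, for the 2 classes of members (top), 7 lists of other cell cycle genes (middle) and 14 marker lists (bottom); colours are clipped at -1 and 1. Control 2 has the highest score in both classes and in 6 of the 7 cell cycle lists, and macrophage markers are lowest in knockout 6 and control 2.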

How the data were processed

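RNA of gonadal fat was measured on Affymetrix mouse expression arrays, 1 per sample. Per the submitters' processing notes, the deposited log2 values were made by the authors with RMA (background correction, normalisation between arrays and a summary per probe set), of a version not stated in those notes. Of 45101 probe sets, 64 controls were left out; 34945 had 1 gene symbol in the platform annotation of 2016, 932 had several and 9160 none. By Entrez number 34741 matched the RefSeq table and 0 symbols changed. Each gene took its probe set with the highest mean, giving 18193 genes. Array medians ran from 6.44 to 6.52, and arrays correlated at 0.976 to 0.994, none identical. The table holds no detection calls, and dim values may be compressed.

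Groups were compared with limma 3.58.1 in R 4.3.3 (lmFit, eBayes, two-sided, Benjamini-Hochberg over all genes, threshold 0.05), a step tested on simulated data. With 4 arrays a group, their number limits the precision. Values array by array are given for Mki67, Top2a, Cdk1 and Pcna and, in each class, for the 3 members highest in mean, the 3 smallest in p and the 2 largest in SD; of each of the 7 pathway lists the 2 genes smallest in p are named. Members, lists and alternatives were chosen with earlier results of these data known. Alternatives were the variance model, a filter on dim genes, normalisation, probe sets, array weights, a plain test, the array set and leaving out arrays. Figures were drawn with matplotlib 3.10.9.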

Additional observations from a re-analysis of the deposited data

Results flagged for a closer look

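In groups of 4 arrays, a single array standing far from the other 3, by a gap that, divided by the group's range, passed Dixon's 95% critical value, was found 7 times in 120 groups of members and list scores, where chance flags about 1 in 20. Among members, Cdk1 had control 2 at the top of its group with a gap of 0.83 of the range and knockout 6 at the top of its own with 0.845. Ect2 had control 2 at the top with 0.846, and Mcm3 had knockout 10 at the bottom with 0.85. The score of G2 and M control and checkpoint kinases had control 2 at the top with 0.854. Among marker lists, spermatogenic markers had knockout 9 at the top with 0.933 and epididymis markers knockout 8 with 0.859.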

How the results depend on the processing

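Under every alternative run, 0 genes, 0 members and 0 other cell cycle genes passed an adjusted p of 0.05, with limma or with the plain test per gene; limma had 466 genes at an unadjusted p under 0.05, and between 283 and 1566 when 1 array was left out. Leaving out 1 array at a time, the median difference ran from -0.18 to -0.00475 in S phase and from -0.17 to 0.06 in mitosis. Over the same omissions Mki67 ran from -0.39 to 0.19, Top2a from -0.34 to 0.17, Cdk1 from -0.35 to 0.11, Rrm2 from -0.44 to 0.10, Tk1 from -0.35 to 0.0569 and Mcm7 from -0.18 to 0.0873, the upper values without control 2, or for Mcm7 without control 4. Mcm7 was 0.14 within the last 4 arrays and 0.0246 without control 2 and knockout 6, and Nek2 was -0.0211 without controls 1 and 3 and knockouts 8 and 9, both omissions chosen after seeing the data. Without controls 1 and 3 and knockouts 8 and 9, the median difference was -0.20 in S phase and -0.27 in mitosis. In that fit 9 S phase members and 24 mitosis members lay below 0. With array weights the medians were -0.16 and -0.18, with 10 and 21 members below 0. The weights were 0.911, 1.176, 0.63 and 0.49 for controls 1, 2, 3 and 4. They were 1.189, 1.885, 0.889 and 1.517 for knockouts 6, 8, 9 and 10. The cause of these changes in the differences was not tested. The filter on dim genes left no mitosis member, so that class has no value there. No paired analysis was possible because the groups share no replicate number. Depth is not known from these values, and a gene near background may change more than its value shows.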
